A study of Mus musculus with 36 samples.

Results

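The day 7 RNA-seq libraries of Taf1 knockout (KO) mouse bone marrow cultures are compared here, 3 from cells taken through a macrophage course and 3 from cells taken through a granulocyte course. They were chosen by their labels, as 6 of the 36 libraries of the series, and the 2 tables that hold them were joined by gene symbol. All cultures began as hematopoietic stem and progenitor cells, grown with the cytokines SCF and IL-3 in medium with 20% horse serum. After 3 days each culture was divided. The granulocyte arm received SCF, IL-3 and G-CSF and then G-CSF alone, the macrophage arm received GM-CSF and M-CSF and then M-CSF alone, and every cytokine was at 50 ng/ml. The comparison asks how far the lineage programs come apart in the cultures labelled Taf1 KO. The 6 control libraries of the same day and courses are used to ask where the KO difference departs from the control difference. Strain, age, the Cre driver, the deleted part of the gene and whether a replicate is a separate mouse are not given in the sources used here. The p-values below therefore measure the spread between these libraries, which may be technical.

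TFIID is the general transcription factor complex that binds core promoters with the TATA-binding protein and helps to place RNA polymerase II, and TAF1 is its largest subunit. Macrophages and neutrophilic granulocytes share a myeloid progenitor. M-CSF acts through the receptor Csf1r and favours phagocytic, lysosome-rich macrophages, whereas G-CSF acts through Csf3r and favours cells that pack antimicrobial proteins into primary granules and then into later granules. Levels are given as TPM, the authors' unit, a share of a library's transcripts that is corrected for transcript length and sums to the same total in every library.

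The 6 KO libraries had 10654 to 10965 genes at 1 TPM or more, and replicates of a group correlated across genes at r 0.981 to 0.995. In both KO courses replicates 2 and 3 were the closest pair. The short structural RNAs Rpph1 and Rmrp held 6.10% of TPM in the macrophage and 3.88% in the granulocyte libraries on average (exact permutation p = 0.5), with replicate 1 the highest in both. The TPM tables do not carry read depth. Taf1 itself (chromosome X, positions 101532734 to 101601789 of GRCm38, a protein-coding gene) measured 6.76, 7.23 and 7.57 TPM in the KO macrophage libraries and 6.65, 8.66 and 8.01 TPM in the KO granulocyte libraries, replicates 1 to 3 in order here and below. Control values were 13.0, 13.6 and 13.1 TPM in the macrophage course and 10.2, 12.1 and 11.2 TPM in the granulocyte course, so the KO and control libraries did not overlap. Taf1 transcripts remained at 6.65 to 8.66 TPM in the KO libraries. Whether they lack the deleted part or come from undeleted cells was not tested. The KO courses overlapped with each other, with a log2 difference of -0.09 ± 0.10 (macrophage minus granulocyte, standard error; adjusted p = 0.433). With median-of-ratios scaling that difference was -0.25 and passed.

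Of 11269 genes tested, 5967 (53.0%) differed between the KO courses at a Benjamini-Hochberg adjusted p under 0.05 in limma, 4227 (37.5%) higher and 1740 (15.4%) lower in the macrophage course. Log2 differences are macrophage minus granulocyte on log2(TPM + 1), given with their standard error, and folds are ratios of mean TPM. The KO libraries of the courses did not overlap for 60.4% of the tested genes, with the macrophage libraries above for 43.7% and below for 16.7%. These shares, and those of the calls, are the reference for the list counts and statements on overlap below. List members named by smallest p tend not to overlap because of that choice, so for them a lack of overlap is only a description. In bulk cultures, fewer cells of a type and less RNA per cell cannot be told apart. Large differences were more often lower in the macrophage course: 664 of the called genes were lower by at least 1 log2 unit and 410 were higher by as much, and at 3 log2 units the numbers were 51 and 8. The share of higher calls depended on scaling. The median over all tested genes was 0.18 in TPM and 0.03 after median-of-ratios scaling, which gave 3050 higher (27.1% of 11250 tested) and 2767 lower calls (24.6%). Without replicate 2 of both KO groups the calls fell to 3748, and without replicate 3 of both to 3856. This fit treated the libraries as unpaired. With the replicate number as a block 7741 genes were called, 5501 higher and 2240 lower.

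**Figure D1:**
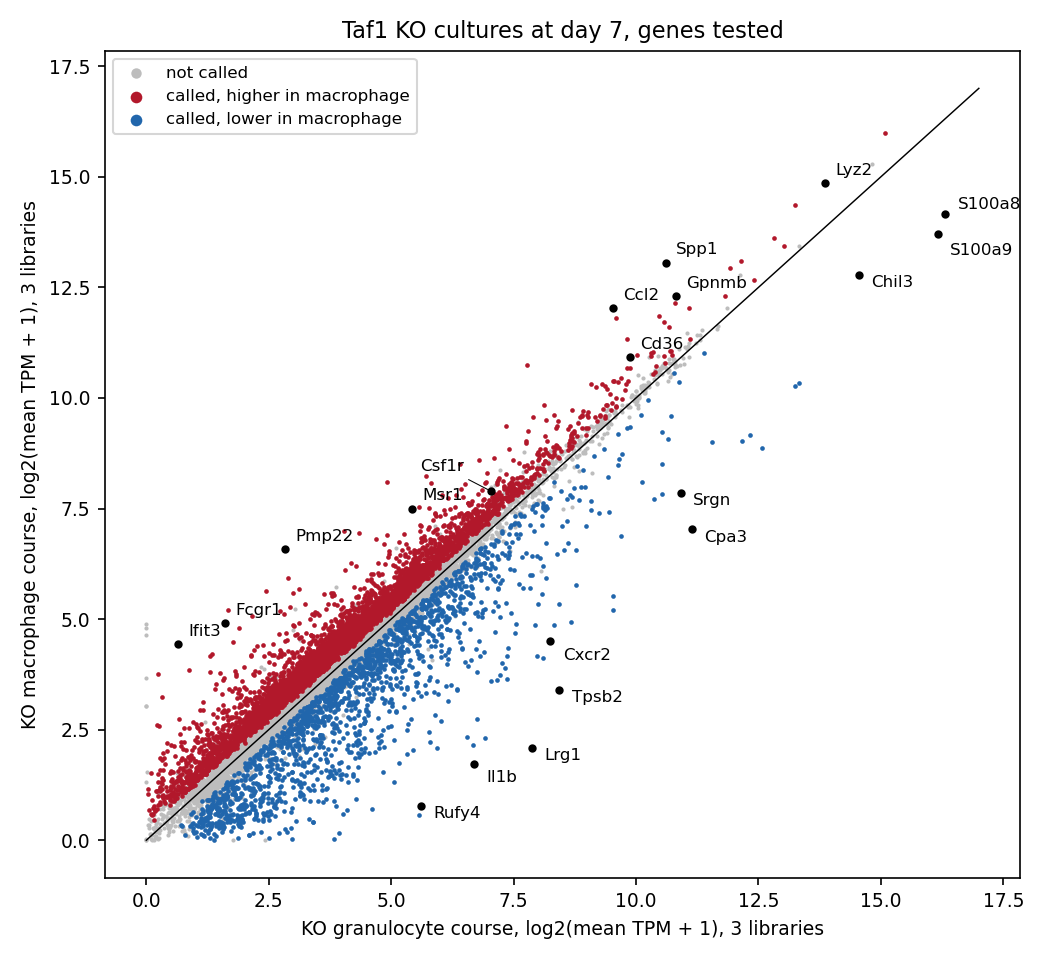
Mean level of each tested gene in the KO granulocyte course (horizontal, log2(TPM + 1), 3 libraries) and the KO macrophage course (vertical, same scale); red and blue points passed the test and the line marks equal levels. Labelled genes are black: S100a8 and S100a9 lie far to the right of the line among the most abundant transcripts, and Spp1, Ccl2 and Lyz2 lie above it.

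The genes with the most negative differences included an inflammatory cytokine and several mast cell genes. Lrg1, a secreted glycoprotein stored in neutrophil granules, measured 5.61, 1.80 and 2.39 TPM in the macrophage libraries and 275, 227 and 203 TPM in the granulocyte libraries. Its log2 difference of -5.88 ± 0.37 (adjusted p = 1.7e-06) was the most negative of the called genes with no overlap and a mean of 5 TPM or more in the higher course. Reads of close gene copies can be divided between them, which leaves Tpsb2, Serpina3g and, below, the Ifit genes, Ccl2, Ccl7 and Ccl12, Hbb-bt, Csf2rb and Gm5150 less certain. Il1b, which encodes the inflammatory cytokine interleukin-1 beta, was at 3.62, 1.73 and 1.60 TPM in the macrophage course against 113, 95.9 and 96.8 TPM, a log2 difference of -5.00 ± 0.33 (adjusted p = 2.35e-06). Rufy4, an adaptor of vesicle transport, was at 0.810, 0.740 and 0.590 TPM against 36.0, 54.9 and 51.8 TPM, 66.7 times lower in the macrophage course. The same selection held 3 mast cell genes (Tpsb2, Gzmb and Cma1), Tph1 (the first enzyme of serotonin synthesis), the stefin-like gene 2010005H15Rik, the protease inhibitor Serpina3g and the interferon-inducible membrane protein Ifitm1, with log2 differences of -4.77 to -4.0. That each of these genes was higher in all 3 granulocyte libraries than in any macrophage library was a condition of the selection.

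At the other end, Pmp22, a membrane protein best known from myelin, measured 83.3, 105 and 96.9 TPM in the macrophage libraries and 6.90, 5.85 and 5.47 TPM in the granulocyte libraries (log2 3.76 ± 0.30, adjusted p = 8.13e-06). Pid1, an adaptor that interferes with insulin signalling, was at 53.2, 47.5 and 44.2 against 5.69, 4.49 and 3.04 TPM (log2 3.22 ± 0.16, adjusted p = 3.9e-07). Gas6, the bridging ligand that lets TAM receptors recognise dying cells, was at 55.8, 66.6 and 58.1 against 9.55, 4.72 and 5.00 TPM, and Dab2, an endocytic adaptor, at 130.3, 124 and 126 against 17.7, 16.1 and 12.7 TPM, 9.37 and 8.16 times higher. The lack of overlap between the courses for these 4 genes was likewise a condition of the selection. Nptx1, a secreted pentraxin of neurons, was at 5.27, 17.2 and 14.9 TPM against 0.220, 0.210 and 0.0900 TPM, with macrophage replicate 1 the lowest of its group. The remaining genes of this selection were Ifit3, Fcgr1, Ccl12 and Ccl7, which are described below, and Gm12238 (log2 4.20 ± 0.90), a short non-coding gene within an intron of G3bp1 on the same strand that was listed at 0 in KO granulocyte replicates 2 and 3 and whose reads may belong to that intron.

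Macrophage markers were higher in the macrophage course, but the granulocyte course held many of them too. Of 22 tested markers, 12 were higher, 1 was lower and 9 did not pass, against 37.5% higher and 15.4% lower over all tested genes. The median log2 difference was 0.80 against 0.18 for all genes tested, and with the replicate number as a block 19 were higher. Csf1r, the M-CSF receptor, measured 225, 249.7 and 234 TPM in the macrophage libraries and 131, 132 and 130.3 TPM in the granulocyte libraries (log2 0.84 ± 0.15, adjusted p = 0.000859). Every macrophage library lay above every granulocyte library, yet the granulocyte level was more than 100 TPM in all 3. Adgre1, which encodes the macrophage antigen F4/80, was at 309.9, 256 and 272 against 124, 171 and 170.4 TPM (log2 0.85 ± 0.21, adjusted p = 0.00567), and Cd68, a lysosomal membrane glycoprotein of phagocytes, was at 765, 699.5 and 708 against 289, 298 and 272 TPM (log2 1.33 ± 0.20, adjusted p = 0.000326). The separation was wider for receptors of uptake. Fcgr1, the high-affinity receptor for IgG, was at 29.8, 33.4 and 23.8 TPM against 3.38, 1.56 and 1.2 TPM, 14.2 times higher (adjusted p = 2.82e-05). Stab1, a scavenger receptor, was at 54.4, 46.4 and 41.2 against 6.21, 7.35 and 7.26 TPM and 6.82 times higher, and Msr1, scavenger receptor A, was at 103, 219.9 and 216 against 36.4, 46.6 and 42.3 TPM and 4.30 times higher, with Msr1 lowest in macrophage replicate 1. The marker that was lower was Cd14, the lipopolysaccharide co-receptor (log2 -0.49 ± 0.13, adjusted p = 0.008).

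Some markers of mature tissue macrophages did not pass. C1qc, a chain of complement C1q, was at 87.4, 47.8 and 35.3 TPM in the macrophage libraries and 59.4, 11.8 and 12.2 TPM in the granulocyte libraries. Replicate 1 was the highest in both courses, the macrophage library was the higher of each same-numbered pair, and the groups overlapped. The log2 difference was 1.31 ± 0.62 and the adjusted p 0.0929, or 0.000964 with the replicate number as a block and 0.00752 without granulocyte replicate 1. Mertk, a TAM receptor for Gas6, was at 29.2, 32.4 and 33.1 against 24.3, 21.8 and 20.5 TPM (log2 0.49 ± 0.21); its groups did not overlap, and it passed with the block (adjusted p = 0.00258) but not without it (0.065). Of 7 tested Fc receptor genes, Fcgr1 and the neonatal Fc receptor Fcgrt were higher, 4 did not pass, and the inhibitory receptor Fcgr2b was lower at 86.8, 68.9 and 89.7 against 187, 299 and 302 TPM (log2 -1.65 ± 0.22, adjusted p = 0.000142). These counts were near the 37.5% higher and 15.4% lower of all tested genes.

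Genes of lipid-loaded, Spp1-expressing macrophages were abundant in both courses and more so in the macrophage course. Of 19 tested members 13 were higher, 1 was lower and 5 did not pass (median 0.84), against 37.5% higher and 15.4% lower over all tested genes. Their summed level was 23658, 32067 and 30482 TPM in the macrophage libraries against 10601, 11799 and 11929.8 TPM in the granulocyte libraries. Spp1, which encodes the secreted matrix protein osteopontin, measured 5619.9, 10929 and 9005 TPM against 1596, 1633 and 1448 TPM (log2 2.40 ± 0.23, adjusted p = 2.27e-05). Gpnmb, a lysosome-associated glycoprotein, was at 3234, 5802 and 6039.6 against 1484, 1848 and 2059 TPM (log2 1.44 ± 0.32, adjusted p = 0.00327). Both were lowest in replicate 1 of the macrophage course, and even that library lay above every granulocyte library. Lipoprotein lipase, Lpl, was at 892, 963 and 909 against 252, 297 and 286 TPM, and the fatty acid receptor Cd36 was at 1978, 1831 and 1990.2 against 937, 942 and 941 TPM, 3.31 and 2.06 times higher with little spread among replicates. Trem2, a lipid-sensing receptor, Plin2, a coat protein of lipid droplets, and Lipa, the lysosomal acid lipase, were 2.74, 1.91 and 2.45 times higher. Apoe, the apolipoprotein E gene, measured 492, 381 and 284 TPM against 207, 63.6 and 58.1 TPM (log2 2.03 ± 0.40, adjusted p = 0.00159), with replicate 1 the highest of both groups. The member that was lower was Fabp4, a fatty acid binding protein, at 51.7, 41.5 and 46.2 against 104, 97.3 and 81.0 TPM (log2 -1.0 ± 0.27, adjusted p = 0.00893).

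Lysosomal genes were mostly higher in the macrophage course. Over all tested genes 37.5% were called higher, and for 43.7% the macrophage libraries lay above without overlap. Of 32 tested members 23 were higher, none was lower and 9 did not pass (median 0.69); with median-of-ratios scaling 19 were higher and 1 was lower. Without replicate 2 of both KO groups 11 were higher and without replicate 3 of both 12, with medians of 0.69 and 0.65. Ctsb, the protease cathepsin B, measured 3341, 3839 and 3898 TPM against 1485, 1382 and 1356 TPM, and Ctsl, cathepsin L, measured 2907, 3436 and 3771 against 1858, 1363 and 1325 TPM, with log2 differences of 1.39 ± 0.24 (adjusted p = 0.000806) and 1.16 ± 0.15 (adjusted p = 0.000132). Lgmn (legumain), Gusb (beta-glucuronidase) and Psap (prosaposin, the precursor of sphingolipid activators) were 2.34, 2.43 and 1.94 times higher. None of these 5 genes overlapped between the courses, but the choice of list members by smallest p favours that. Over the 32 tested members the macrophage libraries lay above without overlap for 24 and below for none. The 32 genes together held 3.87% ± 0.316 of all TPM in KO macrophage libraries and 2.12% ± 0.0544 in KO granulocyte libraries (SD, n = 3; exact two-sided permutation p = 0.1, the smallest that 3 against 3 libraries can give). Of 12 tested genes of iron handling 5 were higher, close to the 37.5% of all tested genes, none was lower and 7 did not pass; 10 were higher with the block, and 3 without replicate 2 or without replicate 3 of both KO groups. Slc40a1, the iron exporter ferroportin, was at 79.9, 92.7 and 82.3 TPM against 41.2, 37.8 and 34.9 TPM (log2 1.14 ± 0.10, adjusted p = 1.13e-05). The 2 ferritin genes Fth1 and Ftl1 held 7.25% ± 0.884 of TPM in KO macrophage libraries and 3.87% ± 0.364 in KO granulocyte libraries (SD, n = 3; exact permutation p = 0.1).

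**Figure D2:**
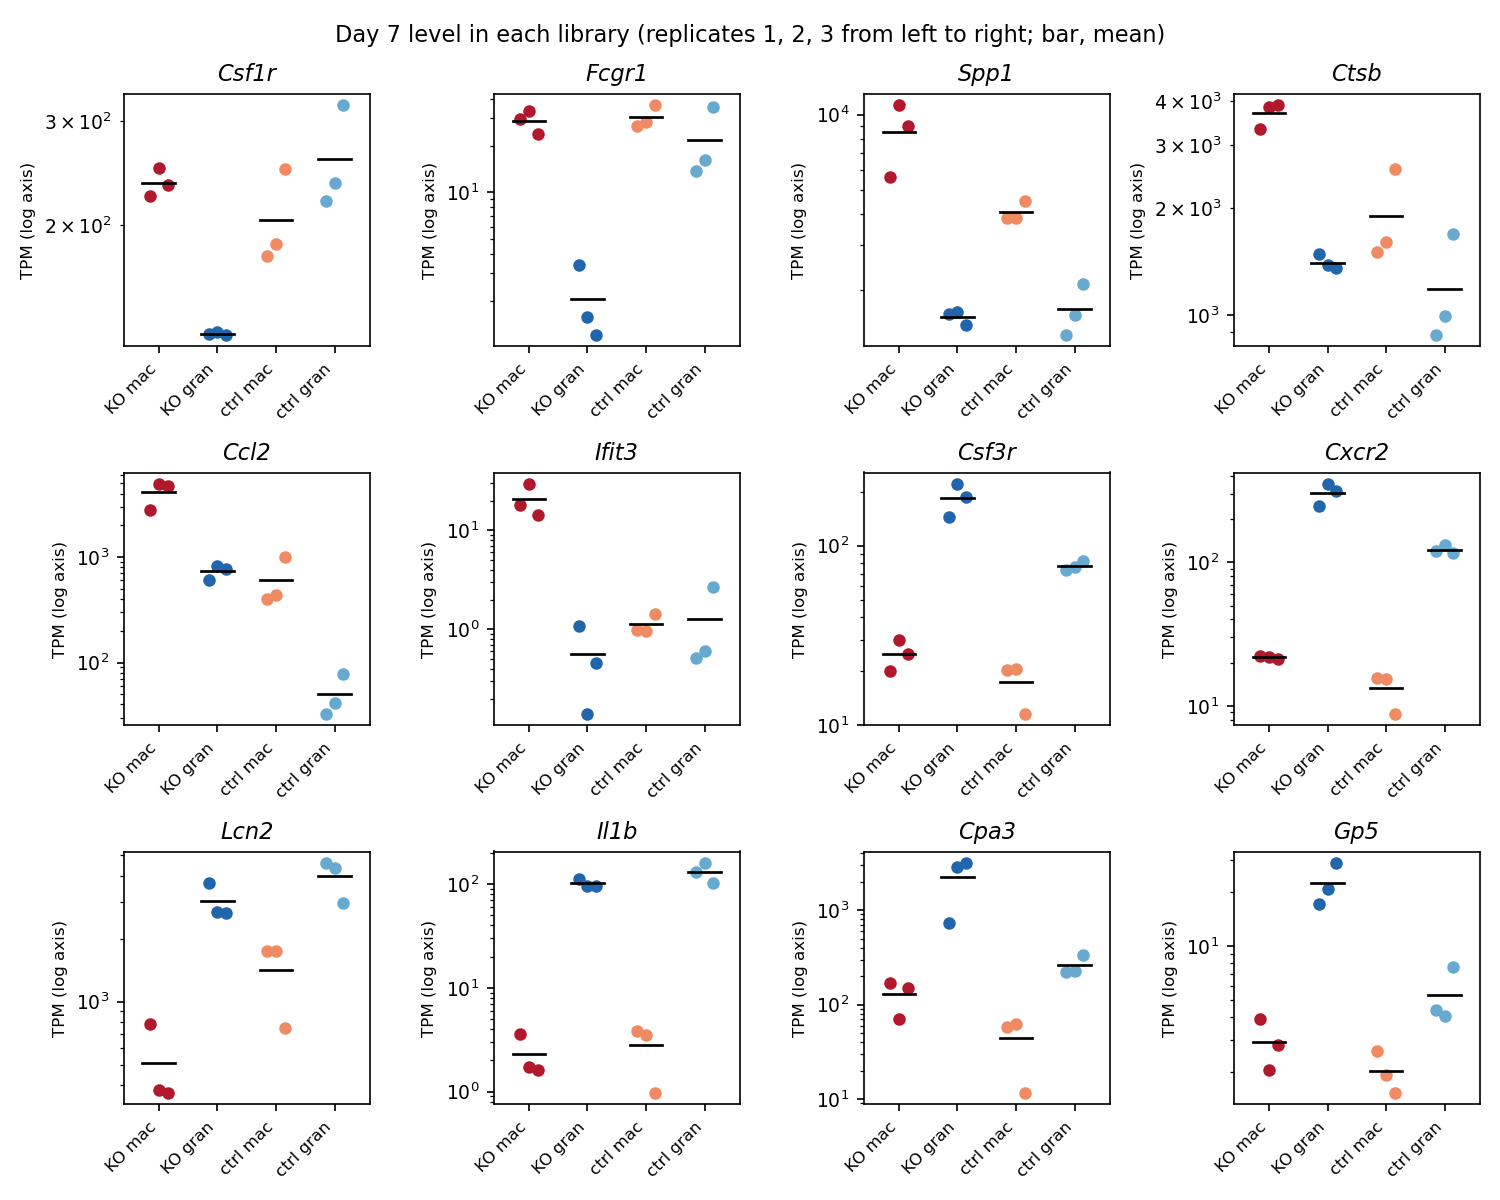
Level of 12 genes in each day 7 library (TPM, log axis), with the 3 replicates of a group as points and their mean as a bar. Csf1r, Fcgr1, Spp1, Ctsb, Ccl2 and Ifit3 were higher, and the other 6 lower, in every KO macrophage library than in any KO granulocyte library; Cpa3 in KO granulocyte replicate 1 lay below replicates 2 and 3.

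Neutrophil receptors, that for G-CSF among them, were higher in the granulocyte course. Csf3r, the G-CSF receptor, measured 20.0, 29.7 and 25.1 TPM in the macrophage libraries and 145, 220.5 and 187 TPM in the granulocyte libraries (log2 -2.83 ± 0.22, adjusted p = 6.5e-06). Cxcr2, the chemokine receptor that calls neutrophils from marrow to tissue, was at 22.1, 21.9 and 21.3 against 246, 352 and 315 TPM, 14.0 times lower (adjusted p = 4.13e-07). The formyl peptide receptors Fpr1 and Fpr2, which sense bacterial peptides, were 4.77 and 6.52 times lower in the macrophage course, and Il1r2, the decoy receptor for interleukin-1, 8.57 times lower at 12.6, 39.9 and 32.4 against 219, 291 and 217 TPM. None of these 5 genes overlapped between the courses, but the choice of list members by smallest p favours that. Over the 21 tested surface genes of neutrophils the macrophage libraries lay below without overlap for 15 and above for 2. Over all tested genes the shares were 16.7% and 43.7%. Of 21 tested surface genes of neutrophils 15 were lower, 2 were higher and 4 did not pass (median -1.44). Over all tested genes 15.4% were lower and 37.5% higher. The 2 that were higher were the complement receptor C5ar1, at 217, 167 and 166 against 85.4, 75.7 and 74.0 TPM (log2 1.21 ± 0.11, adjusted p = 1.91e-05), and Ptafr, the receptor for platelet-activating factor (log2 0.97 ± 0.34, adjusted p = 0.0329). The Ptafr call was lost without any 1 KO library other than macrophage replicate 1 (adjusted p up to 0.11). The list of receptors for the culture cytokines had 7 tested members, of which Csf1r was higher and Csf3r, Kit, Csf2ra and Csf2rb2 were lower. Without replicate 2 or without replicate 3 of both KO groups 2 were lower. The Csf2ra call (log2 -0.40 ± 0.15) was lost without replicate 1 or 2 of the macrophage or 2 or 3 of the granulocyte course (adjusted p up to 0.149), and the Csf2rb2 call (log2 -1.03 ± 0.37) without macrophage replicate 1 or granulocyte replicate 2 or 3 (adjusted p up to 0.137). Csf2rb, the common beta chain for IL-3 and GM-CSF, was at 152, 382 and 417 against 289, 643 and 704 TPM; it was lowest in replicate 1 of both courses. Its adjusted p was 0.0929, or 0.000148 with the block and 0.0148 without granulocyte replicate 1, and it also passed after median-of-ratios scaling. Ly6g was not analysed here.

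S100a8 and S100a9, the subunits of the neutrophil protein calprotectin, were the most abundant transcripts that separated the courses. S100a8 measured 20745, 18024 and 16500.5 TPM in the macrophage libraries and 83296, 84443 and 76908 TPM in the granulocyte libraries (log2 -2.15 ± 0.24, adjusted p = 5.5e-05), and S100a9 measured 18650.0, 11104 and 10255 against 80082, 72011 and 67935 TPM (log2 -2.51 ± 0.28, adjusted p = 5.98e-05). Together they held 3.94%, 2.91% and 2.68% of all TPM in the macrophage libraries, against 16.3%, 15.6% and 14.5% in the granulocyte libraries (exact permutation p = 0.1, the smallest possible). So large a share lowers the TPM of every other gene in the granulocyte libraries. With the calprotectin, histone and short structural RNA genes left out and the rest rescaled, the median over all genes fell to 0.02, with 2927 higher and 2844 lower calls. Of 8 tested S100 genes these 2 were lower, 2 were higher and 4 did not pass (median 0.14). The higher ones were S100a4, 4.66 times, and S100a10, 2.35 times higher in the macrophage course (adjusted p = 5.5e-05 and 0.000123).

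Most genes of the later neutrophil granules were lower in the macrophage course. Of 20 tested genes of the later granules 14 were lower in the macrophage course, 1 was higher and 5 did not pass (median -1.77). The shares over all tested genes were 15.4% lower and 37.5% higher. Lcn2, the siderophore-binding protein lipocalin 2, measured 785, 379.9 and 366 TPM against 3705, 2695 and 2652 TPM, and Ltf, lactoferrin, measured 654, 216 and 213 against 1919, 1187 and 1329 TPM, with log2 differences of -2.64 ± 0.36 (adjusted p = 0.000199) and -2.21 ± 0.43 (adjusted p = 0.00146). Replicate 1 was the highest macrophage library for both, and it stayed below every granulocyte library. Hp (haptoglobin), Wfdc21 and Slpi (both protease inhibitor-like), Ltb4r1 (the leukotriene B4 receptor) and the gelatinase Mmp9 were 8.23, 6.51, 8.69, 8.26 and 3.99 times lower. Chil3, a chitinase-like protein, was at 10275, 4559 and 6263 against 19193, 25467 and 26972 TPM, and the collagenase Mmp8 was at 215, 728 and 667 against 981, 2093 and 1774 TPM, so both were well expressed in the macrophage course too. The gene of this list that was higher was B4galt1, a galactosyltransferase of the Golgi (log2 0.53 ± 0.13, adjusted p = 0.00656). Camp, the cathelicidin gene, was low in both KO courses, at 77.8, 11.2 and 13.2 and 45.3, 18.1 and 20.6 TPM, and did not pass (adjusted p = 0.877). Its sign changed without macrophage replicate 2 (0.33), macrophage replicate 3 (0.22) or granulocyte replicate 1 (0.24). Control cultures had Camp at 1959, 1974 and 469 and 1534, 1349 and 511 TPM.

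The classical proteases of the primary granule were not called between the KO courses. Mpo, myeloperoxidase, measured 320.4, 99.5 and 113 TPM in the macrophage libraries and 739.8, 178 and 175 TPM in the granulocyte libraries, Elane, neutrophil elastase, 72.8, 15.2 and 15.1 against 109, 18.0 and 19.1 TPM, and Prtn3, proteinase 3, 312, 115 and 123 against 807, 212 and 225 TPM. Replicate 1 was higher than replicates 2 and 3 in both courses, and the groups overlapped for all 3 genes. Their adjusted p was 0.289, 0.726 and 0.187; with the replicate number as a block Mpo (0.0234) and Prtn3 (0.0106) passed and Elane (0.201) did not. Without granulocyte replicate 1 the Elane value turned to 0.45. Other members of the 11 tested did pass, where 15.4% of all tested genes were lower and 37.5% higher. Srgn, serglycin, the proteoglycan core on which granule proteins are packed, was at 277, 189 and 229 against 1411, 2198 and 2161 TPM (log2 -3.04 ± 0.33, adjusted p = 4.82e-05), and Cst7, Serpinb1a and Ms4a3 were 5.07, 3.78 and 3.65 times lower; 6 were lower in all. Lyz2, lysozyme, which macrophages also make, was the 1 member higher in the macrophage course, at 20519.8, 34946 and 33048 against 13923, 16144 and 14362 TPM (log2 0.96 ± 0.18, adjusted p = 0.00144).

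Most transcription factors on the granulocyte list were lower in the macrophage course, and those on the macrophage list went both ways. Maf, a factor of mature macrophages, measured 25.0, 25.7 and 22.6 TPM against 5.76, 5.31 and 5.49 TPM (log2 1.96 ± 0.19, adjusted p = 2.69e-05). Irf8, which directs progenitors to monocytes, was at 70.8, 62.1 and 58.3 against 39.9, 20.7 and 20.3 TPM, 2.37 times higher, and granulocyte replicate 1 was the highest of its group. Of 18 tested factors on the macrophage list 10 were higher, 5 were lower and 3 did not pass (median 0.48). Of the called factors 10 of 15 were thus higher, as were 4227 of 5967 calls over all genes. Among the lower ones were Egr2, at 13.0, 8.46 and 9.04 against 28.2, 31.3 and 32.5 TPM, Runx1 (log2 -0.81) and Spi1, the shared myeloid regulator PU.1, at 216, 209 and 215 against 299.8, 297 and 304 TPM; Tfec (log2 -0.56) and Bhlhe40 (log2 -0.45) were the other two, and the Bhlhe40 call was lost without macrophage replicate 1 or granulocyte replicate 2 or 3 (adjusted p up to 0.0905). Of 11 tested factors on the granulocyte list 9 were lower in the macrophage course, 1 was higher and 1 did not pass (median -0.94), against 15.4% lower and 37.5% higher over all tested genes. Cebpe, the factor of later granule genes, was at 30.7, 16.4 and 18.0 against 80.2, 44.7 and 52.5 TPM (log2 -1.41 ± 0.36, adjusted p = 0.00763), and Cebpa, Cebpb and Cebpd were 1.94, 1.74 and 2.78 times lower. Nfil3, a basic leucine zipper factor, had the widest gap at 23.0, 15.4 and 18.4 against 108, 104 and 105 TPM. The factor that was higher, Rxra (log2 0.41 ± 0.16, adjusted p = 0.0435), did not pass when any KO library other than macrophage replicate 1 was left out (log2 0.32 to 0.56, adjusted p up to 0.155), nor after median-of-ratios scaling.

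Genes of mast cells and basophils stood far higher in the KO granulocyte libraries than in the KO macrophage libraries. All 12 tested members of 16 on the list were lower in the macrophage course, where 15.4% of all tested genes were lower. The median log2 difference was -3.11, and 3 of 16 were at 0 in all macrophage libraries against 1 of 16 in all granulocyte libraries. Their summed level was 705, 327 and 693 TPM in the macrophage libraries and 2113, 5969.7 and 6912 TPM in the granulocyte libraries. Cpa3, mast cell carboxypeptidase, measured 168, 71.3 and 151 TPM against 731, 2872 and 3157 TPM (log2 -3.94 ± 0.67, adjusted p = 0.000709). Tpsb2, a mast cell tryptase, was at 12.1, 5.95 and 10.7 against 99.2, 427 and 507 TPM (log2 -4.77 ± 0.54, adjusted p = 6.41e-05), and Cma1, a chymase, at 4.20, 1.73 and 6.05 against 28.2, 152 and 179 TPM (log2 -4.32 ± 0.59, adjusted p = 0.000189). Granulocyte replicate 1 had far less of these 3 transcripts than replicates 2 and 3, and it still lay above every macrophage library. Fcer1a and Ms4a2, chains of the high-affinity IgE receptor, and Hdc, the enzyme that makes histamine, were 11.3, 8.44 and 11.4 times lower in the macrophage course. Gzmb, granzyme B, which mast cells and cytotoxic lymphocytes express, was at 7.32, 0.310 and 2.70 against 39.8, 115 and 147 TPM. Kit, the SCF receptor that mast cells keep, was at 3.67, 4.10 and 4.77 against 10.4, 20.8 and 23.9 TPM (log2 -1.83 ± 0.28, adjusted p = 0.000348). Their part in the other differences between the courses was not tested. With the mast cell and basophil genes left out and the rest rescaled, 4135 genes were called higher and 1745 lower.

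Most tested markers of megakaryocytes, red cells, eosinophils and progenitors were lower in the macrophage course as well. For comparison, 15.4% of all tested genes were called lower and 37.5% higher in the macrophage course. Of 15 tested genes of megakaryocytes and platelets 14 were lower in the macrophage course (median -2.20): Itga2b, the platelet integrin, at 23.8, 12.3 and 22.1 against 99.0, 165 and 234 TPM (log2 -3.0 ± 0.35, adjusted p = 7.91e-05), and Gp5, a platelet surface glycoprotein, at 3.91, 2.03 and 2.80 against 17.1, 20.8 and 28.9 TPM (log2 -2.57 ± 0.25, adjusted p = 2.82e-05). The member that was higher was Pf4, a platelet chemokine that macrophages also make, at 1726, 2212 and 2121 against 969.8, 920.2 and 1217 TPM. Because Pf4 held most of it, the summed level of this list did not follow the count. It was 1887, 2297 and 2240 TPM in the macrophage libraries and 1462, 1483 and 1978.5 TPM in the granulocyte libraries, which overlapped. Gata2 and Gata1, factors shared by mast cells, megakaryocytes and red cell precursors, were 8.43 and 11.1 times lower, with granulocyte replicate 1 again the lowest of its group. Erythroid genes were low in both courses, with a summed level of 7.07, 3.30 and 4.53 TPM against 30.2, 54.3 and 64.2 TPM. Of 16 on the list 6 were tested, and 5 of these were lower. Genes this low in the macrophage course pass the 1 TPM filter more easily through granulocyte libraries, so the filter itself favours such a count. Hbb-bt, an adult beta globin, was at 0.390, 0.360 and 0.260 against 3.60, 10.6 and 14.4 TPM, so among the KO libraries only the granulocyte ones reached 1 TPM. Of 8 tested eosinophil genes 5 were lower (3 without replicate 2 of both KO groups) and 1, the chemokine receptor Ccr3, was higher at 1.21, 1.08 and 1.11 against 0.710, 0.720 and 0.780 TPM (log2 0.30). Only the KO macrophage libraries reached 1 TPM of Ccr3, so the filter admitted it only through the group where it was high. Prg2, the major basic protein, was at 53.8, 23.6 and 24.5 against 153, 133 and 232 TPM, while Epx, eosinophil peroxidase, was at 0.10, 0.0300 and 0.120 and 0.520, 0.270 and 0.310 TPM. Only 3 of 18 lymphoid genes were measured highly enough to test, and 1 of them, Il7r, was higher (log2 0.88 ± 0.29), a call lost without macrophage replicate 2 or 3 or granulocyte replicate 1 (adjusted p up to 0.095). Of 13 tested progenitor genes 10 were lower and 1, Lmo2 (log2 0.59), was higher (median -1.30). This list shares Kit with the mast cell list and holds Gata2, so its count is not separate from the mast cell genes. Cd34, a marker of early progenitors, was at 31.1, 28.7 and 29.9 against 48.9, 42.0 and 38.2 TPM (log2 -0.50 ± 0.12, adjusted p = 0.00622), and Myb was 3.24 times lower.

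GATA factors bind the letters AGATAA, and RefSeq promoters on GRCm38.p6 were searched for them on both strands in the 32851 windows of 200 bases before a transcription start. The motif was in 4 of the 10 tested mast cell and basophil genes that had a window and in 2 of 11 tested platelet genes. It was in 7.80% of all windows, 5.29% of the 8618 tested genes with one and 8.01% of genes called lower in the KO macrophage course. Of 20 tested interferon genes with a window, 2 held it. A match describes letters, not binding. The 4 promoters shown were chosen because they hold a match, and their genes are members of the mast cell and platelet lists; they run from 5′ to 3′ on the gene's strand and ending at the base before the start. Capitals mark AGATAA or its reverse complement TTATCT. The lines are Cpa3 (chr3:20242182-20242381, minus strand), Ms4a2 (chr19:11623720-11623919, minus strand), Fcer1a (chr1:173227230-173227429, minus strand) and Gp5 (chr16:30310782-30310981, minus strand).
Cpa3: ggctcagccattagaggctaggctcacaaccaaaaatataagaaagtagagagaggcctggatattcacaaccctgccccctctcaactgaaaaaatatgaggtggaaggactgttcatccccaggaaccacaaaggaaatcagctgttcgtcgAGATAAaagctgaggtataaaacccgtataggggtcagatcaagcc
Ms4a2: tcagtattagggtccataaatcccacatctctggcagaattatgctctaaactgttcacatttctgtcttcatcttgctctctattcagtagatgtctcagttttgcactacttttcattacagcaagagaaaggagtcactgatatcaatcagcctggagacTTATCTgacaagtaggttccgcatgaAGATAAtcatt
Fcer1a: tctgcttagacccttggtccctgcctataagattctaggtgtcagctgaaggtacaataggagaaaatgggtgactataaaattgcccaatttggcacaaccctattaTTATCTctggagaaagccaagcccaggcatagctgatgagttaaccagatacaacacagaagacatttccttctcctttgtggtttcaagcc
Gp5: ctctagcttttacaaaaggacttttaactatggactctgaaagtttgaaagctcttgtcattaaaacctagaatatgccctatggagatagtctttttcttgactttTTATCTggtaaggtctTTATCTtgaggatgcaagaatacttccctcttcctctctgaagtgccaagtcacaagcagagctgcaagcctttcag
Cpa3 holds 1 match, starting 46 bases before its start, and Fcer1a 1 match at 92 bases. Ms4a2 and Gp5 hold 2 each, at 37 and 11 bases and at 93 and 77 bases.

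**Figure D3:**
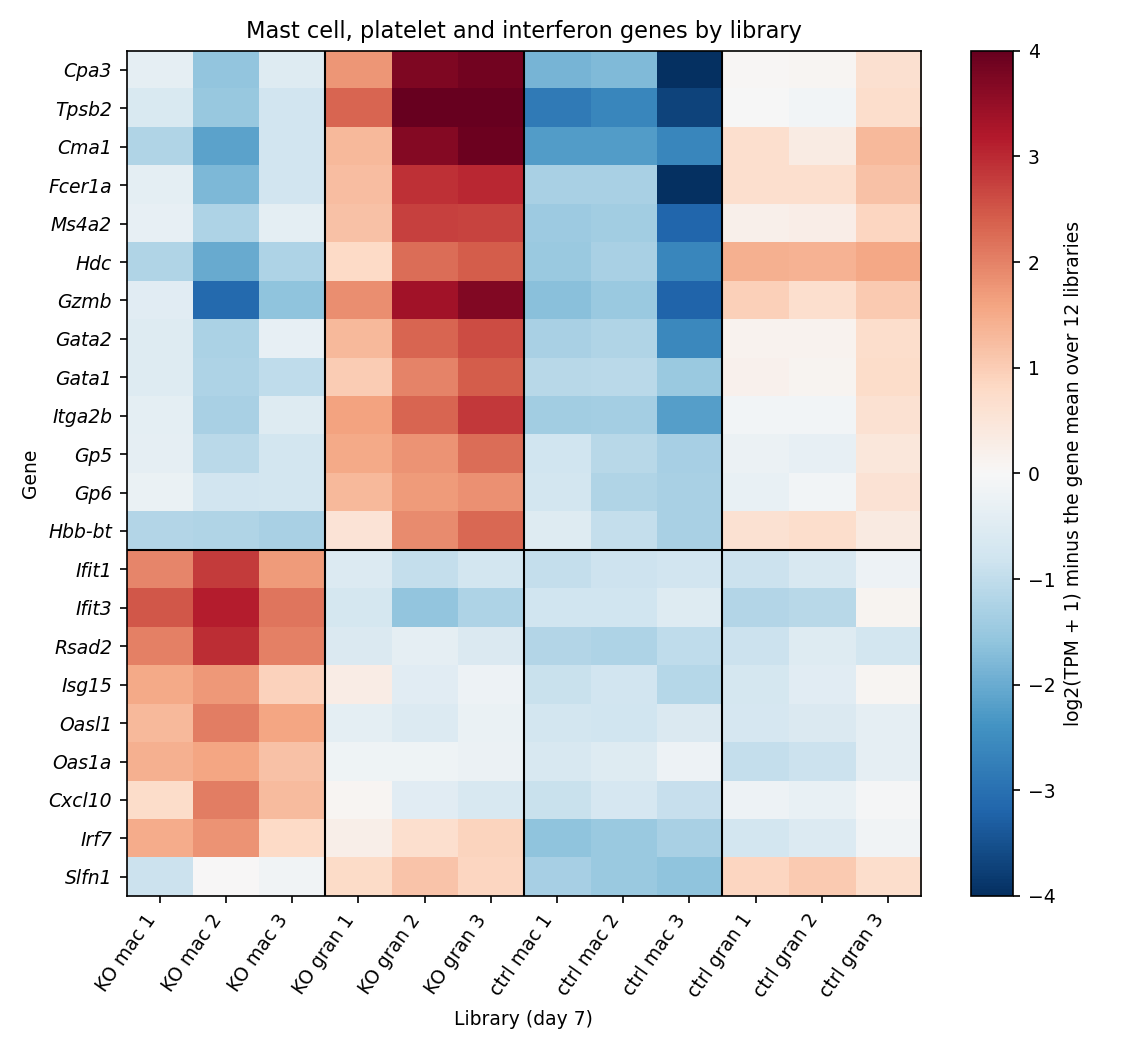
Mast cell, platelet and red cell genes (above the line) and interferon genes (below it) in each day 7 library, as log2(TPM + 1) minus the gene's mean over the 12 libraries; columns are libraries, mac the macrophage and gran the granulocyte course, ctrl control. The upper block is darkest red in KO granulocyte replicates 2 and 3, and in the lower block the rows from Ifit1 to Cxcl10 are reddest in the 3 KO macrophage libraries.

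Interferon-stimulated genes were higher in the KO macrophage course. Of 28 tested members 20 were higher, 1 was lower and 7 did not pass, against 37.5% higher and 15.4% lower over all tested genes. The median log2 difference was 1.10. Ifit3, an antiviral protein that binds viral RNA complexes, measured 18.1, 29.4 and 14.2 TPM in the macrophage libraries and 1.09, 0.140 and 0.460 TPM in the granulocyte libraries (log2 3.77 ± 0.35, adjusted p = 2.2e-05). Ifit1, its cap-sensing partner, was at 10.8, 20.4 and 9.0 against 1.10, 0.590 and 0.820 TPM (log2 2.90 ± 0.25, adjusted p = 1.47e-05), and Rsad2, the radical enzyme viperin, at 20.4, 40.0 and 20.1 against 2.53, 3.13 and 2.48 TPM (log2 2.84 ± 0.22, adjusted p = 6.5e-06). Macrophage replicate 2 was the highest library for all 3, and no granulocyte library reached any macrophage library. Isg15, a ubiquitin-like modifier, was at 19.3, 22.8 and 12.5 against 7.81, 4.21 and 5.15 TPM, and Oas1a, a sensor of double-stranded RNA, at 107, 119 and 90.7 against 35.4, 35.0 and 33.4 TPM, 3.18 and 3.06 times higher. Oasl1 was 9.82 times higher at 4.09, 7.71 and 5.28 against 0.580, 0.430 and 0.730 TPM. Only the KO macrophage libraries reached 1 TPM of Oasl1, so the filter admitted it only through the group where it was high. Cxcl10, a chemokine induced by interferon, was at 4.93, 13.9 and 7.63 against 2.80, 1.64 and 1.32 TPM (log2 1.68 ± 0.28, adjusted p = 0.000626).

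Members of the list varied. Irf7, the factor that amplifies type I interferon, was at 33.4, 41.4 and 20.3 TPM against 13.4, 18.6 and 21.9 TPM; the groups overlapped, and its call (log2 0.76 ± 0.25, adjusted p = 0.0247) was lost when macrophage replicate 1, macrophage replicate 2 or granulocyte replicate 1 was left out (log2 down to 0.54, adjusted p up to 0.106). Slfn1, a regulator of quiescence that interferon can induce, was the lower member, at 9.16, 17.7 and 15.7 against 30.8, 40.3 and 33.0 TPM (log2 -1.27 ± 0.20, adjusted p = 0.00045).  In control cultures the list leaned the other way: 1 member was higher and 11 were lower in the macrophage course, with a median of -0.38 (control calls were 46.7% of all genes tested, 36.3% higher and 10.3% lower). The difference between the KO and control values passed for 20 of the 28 members, all with the KO value above, against 1.65% of all tested genes in that direction. Summed over the 30 genes on the list, the KO macrophage libraries held 845, 1042 and 782 TPM and the KO granulocyte libraries 513, 499.8 and 478 TPM. Control macrophage libraries held 469, 474 and 465 TPM and control granulocyte libraries 872, 883 and 796 TPM. The macrophage libraries held more than any granulocyte library in KO and less in control.

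Interferon-activated complexes bind a repeat of GAAA, searched here as GAAA, 2 bases of any kind and GAAA again on both strands of the same 200-base windows. It was in 8 of the 20 tested interferon genes that had a window, against 2.27% of all windows, 2.49% of tested genes and 2.51% of genes called higher in the KO macrophage course. Of those 8, the 4 shown were chosen because they hold the motif and their transcripts are described above, with the matches, on either strand, in capitals (TTTC, 2 bases and TTTC on the opposite one). They are Ifit1 (chr19:34640689-34640888, plus strand), Ifit3 (chr19:34583329-34583528, plus strand), Rsad2 (chr12:26456453-26456652, minus strand) and Isg15 (chr4:156200819-156201018, minus strand).
Ifit1: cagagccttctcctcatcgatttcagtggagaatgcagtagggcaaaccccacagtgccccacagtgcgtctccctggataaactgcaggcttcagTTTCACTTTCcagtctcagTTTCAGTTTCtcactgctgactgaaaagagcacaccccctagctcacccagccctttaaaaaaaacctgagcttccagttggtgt
Ifit3: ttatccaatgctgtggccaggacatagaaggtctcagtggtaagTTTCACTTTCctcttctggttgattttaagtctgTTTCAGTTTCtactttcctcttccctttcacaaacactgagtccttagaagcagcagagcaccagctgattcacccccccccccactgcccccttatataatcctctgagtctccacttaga
Rsad2: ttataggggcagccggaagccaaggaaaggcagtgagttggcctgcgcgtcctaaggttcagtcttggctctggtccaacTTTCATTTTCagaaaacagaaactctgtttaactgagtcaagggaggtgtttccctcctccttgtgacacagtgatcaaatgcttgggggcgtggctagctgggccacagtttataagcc
Isg15: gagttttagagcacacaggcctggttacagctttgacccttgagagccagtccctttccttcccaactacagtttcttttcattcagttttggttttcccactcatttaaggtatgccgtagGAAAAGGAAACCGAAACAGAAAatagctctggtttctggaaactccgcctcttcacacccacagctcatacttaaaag
Ifit1 holds 2 matches, starting 104 and 85 bases before its start, and Ifit3 holds 2, at 156 and 122 bases. Rsad2 holds 1 at 120 bases. Isg15 holds 3 that overlap each other, at 78, 72 and 66 bases, and form the single run in capitals.

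Some chemokines were higher and some lower. Ccl2, Ccl7 and Ccl12, which draw monocytes, were higher in the macrophage course: Ccl2 measured 2796, 4939 and 4769 TPM against 612, 817 and 770.4 TPM (log2 2.47 ± 0.38, adjusted p = 0.000394). Ccl7 was at 1308, 1897 and 1940.3 against 224, 234 and 199.5 TPM and Ccl12 at 209, 297 and 319 against 35.7, 26.9 and 25.0 TPM, 7.83 and 9.43 times higher. Replicate 1 was the lowest macrophage library for each, and none of the groups overlapped. Cxcl2 and Cxcl3, which draw neutrophils, were lower: Cxcl2 was at 27.8, 11.7 and 11.5 against 236, 137 and 119 TPM (log2 -3.25 ± 0.80, adjusted p = 0.00611) and Cxcl3 at 4.40, 12.2 and 14.6 against 81.2, 80.6 and 59.9 TPM (log2 -2.84 ± 0.48, adjusted p = 0.000654). Ccl24, an eosinophil attractant, was lower as well, at 6.32, 2.99 and 3.46 against 19.3, 16.4 and 22.0 TPM. Of 16 tested chemokines 6 were higher, 3 were lower and 7 did not pass (median 0.60), close to the 37.5% and 15.4% of all tested genes; with the block 10 were higher. Genes of alternative activation were mostly lower, 5 of 8 tested, with Stab1 the 1 that was higher. Retnla, a resistin-like protein induced by IL-4, was at 2.70, 0.710 and 1.03 against 68.9, 13.3 and 14.1 TPM (log2 -3.40 ± 0.54, adjusted p = 0.000475). Arg1, arginase 1, was at 198, 0.960 and 2.78 against 389, 210.3 and 199 TPM, with macrophage replicate 1 far above replicates 2 and 3, and its adjusted p was 0.0999, or 0.00396 with the block and 0.0228 without that library.

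Antigen presentation genes were low in both courses and lower in the macrophage course, where 15.4% of all tested genes were called lower. Of 9 tested MHC class II genes 7 were lower and none was higher (median -0.75; 3 and 4 lower without replicate 2 or 3 of both KO groups), with a summed level of 304, 386 and 459 TPM against 496, 689 and 884 TPM. H2-Aa, an MHC class II alpha chain, was at 33.9, 44.3 and 53.9 against 66.3, 105 and 130.1 TPM (log2 -1.14 ± 0.31, adjusted p = 0.00989) and H2-Ab1, its beta chain partner, at 25.9, 30.6 and 35.0 against 51.1, 67.6 and 92.7 TPM (log2 -1.15 ± 0.24, adjusted p = 0.00211). Of 10 tested dendritic cell genes 5 were lower and none was higher (2 lower without replicate 2 or without replicate 3 of both KO groups), with summed levels of 115, 94.5 and 112 and 85.2, 177 and 269 TPM that overlapped. Genes of the phagocyte NADPH oxidase, the enzyme of the oxidative burst, were lower by small amounts in 5 of 6 tested (median -0.63): Rac2 was at 160.4, 161 and 156 against 263, 264 and 278 TPM.

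Cell cycle genes were higher in the macrophage course, where 37.5% of all tested genes were called higher. Of 28 tested S phase genes 25 were higher, and of 25 tested mitosis genes 23 were higher, with none lower (medians 0.52 and 0.60); after median-of-ratios scaling 15 and 14 were higher and still none lower. Without replicate 3 of both KO groups 15 mitosis genes were higher. Pcna, the sliding clamp of DNA replication, measured 655, 757 and 714 TPM against 331, 349 and 328 TPM (log2 1.07 ± 0.12, adjusted p = 6.78e-05). Ccne2, cyclin E2, was at 26.4, 30.5 and 30.3 against 13.7, 15.1 and 13.2 TPM (log2 1.0 ± 0.08, adjusted p = 7.04e-06) and Kif23, a motor of cytokinesis, at 30.7, 33.0 and 32.1 against 17.5, 14.1 and 13.2 TPM (log2 1.06 ± 0.12, adjusted p = 6.8e-05). Mki67, the proliferation antigen Ki-67, was 1.44 times higher. The KO differences ran from 0.09 to 1.12 over the S phase genes and from 0.19 to 1.06 over the mitosis genes. In control cultures 25 of 28 S phase and 20 of 25 mitosis genes were higher, and the difference between the KO and control values passed for no gene of either list.

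Genes of oxidative phosphorylation, the mitochondrial respiratory chain, were higher in the macrophage course. Of 36 tested genes of oxidative phosphorylation 31 were higher in the macrophage course and none was lower (median 0.42; 25 and none after median-of-ratios scaling, and 16 and 20 higher without replicate 2 or 3 of both KO groups), for example Ndufb8 of complex I at 413, 453 and 448 against 282, 274 and 304 TPM (log2 0.61 ± 0.12, adjusted p = 0.00152). Glycolysis showed no common direction: 6 of 18 tested genes were higher and 3 lower in TPM, near the shares of all tested genes, whereas median-of-ratios scaling gave none higher and 4 lower. Without replicate 1, 2 or 3 of both KO groups 2, 1 and 2 were higher. Slc16a3, the lactate exporter, was at 99.0, 38.4 and 35.7 against 162, 144 and 152 TPM (log2 -1.55 ± 0.43, adjusted p = 0.0106). Ribosomal protein genes depended on scaling as well, with 10 of 35 higher and none lower in TPM (median 0.10, below the 0.18 of all genes) but with median-of-ratios scaling 1 was higher and 1 lower; without replicate 1, 2 or 3 of both KO groups 4, 2 and 2 were higher. Rpl26 had the largest difference of the list, at 572, 651 and 691 against 326, 324 and 341 TPM. Sterol synthesis genes were called in 7 of 22 cases, 6 higher and 1 (Srebf2, log2 -0.22 ± 0.08) lower, below the shares of all tested genes; 12 were higher and 4 lower with the block, and 2 higher without replicate 2 or without replicate 3 of both KO groups. The Srebf2 call was lost without any 1 KO library other than granulocyte replicate 2 (adjusted p up to 0.146), and the lower calls became 4 after median-of-ratios scaling. Among 20 tested targets of Trp53, the tumour suppressor p53, 6 were higher, 5 were lower and 9 did not pass; with the block 11 were higher, and without replicate 3 of both KO groups 4 were higher and 3 lower. Mdm2, the ubiquitin ligase that restrains it, was at 78.8, 131 and 136 against 47.4, 73.4 and 73.0 TPM (log2 0.81 ± 0.21, adjusted p = 0.00823), whereas Perp was at 3.69, 2.30 and 4.72 against 9.05, 33.7 and 34.6 TPM (log2 -2.38 ± 0.41, adjusted p = 0.000741).

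The partners of TAF1 in TFIID differed little. Of 15 tested subunit genes 5 (Taf13, Taf9b, Taf6, Taf9 and Taf11) were higher, 2 (Taf8 and Taf7) were lower and 8 did not pass in TPM, whereas median-of-ratios scaling gave 2 higher and 4 lower calls. The TPM counts were near the shares of all tested genes; with the block 9 were higher, and without replicate 1, 2 or 3 of both KO groups 3, 2 and 3. Taf13, a histone-fold subunit, measured 48.8, 51.7 and 59.0 TPM against 30.6, 37.9 and 32.7 TPM (log2 0.64 ± 0.12, adjusted p = 0.0015), with no overlap. Taf6, another histone-fold subunit, was at 48.2, 50.2 and 46.2 against 36.1, 39.5 and 38.1 TPM, and its call (adjusted p = 0.00305) was lost after median-of-ratios scaling. Taf8 was lower at 6.53, 7.71 and 7.44 against 9.09, 11.5 and 13.4 TPM (log2 -0.57 ± 0.17, adjusted p = 0.0146), a call lost without granulocyte replicate 3 (log2 -0.45, adjusted p = 0.0592). Taf7 (log2 -0.30 ± 0.10) lost its call without replicate 2 or 3 of either course (adjusted p up to 0.0885), and Taf9b (log2 0.70 ± 0.23) without macrophage replicate 2 or 3 or granulocyte replicate 1 or 2 (adjusted p up to 0.0884). Taf11 (log2 0.24 ± 0.08) lost it without macrophage replicate 2 or 3 or granulocyte replicate 1 (adjusted p up to 0.0954), and Taf9 (log2 0.29 ± 0.08) and Taf11 after median-of-ratios scaling.

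**Figure D4:**
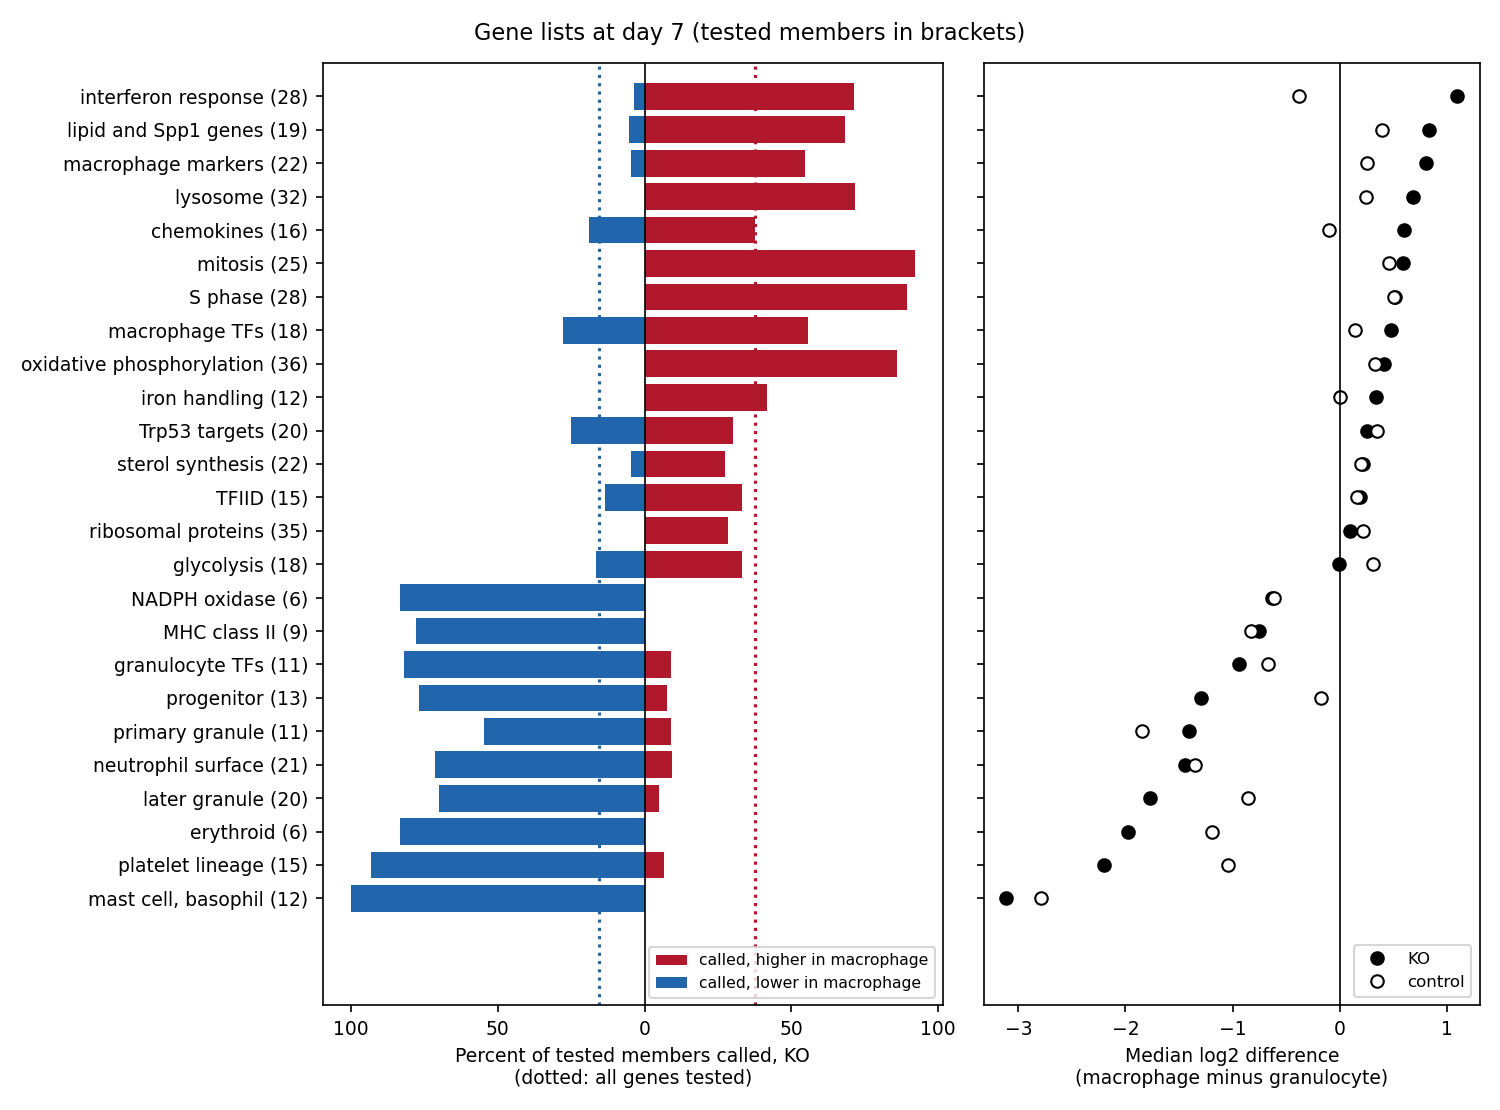
A selection of the gene lists at day 7, with the number of tested members in brackets. Left, percent of tested members called higher (red) or lower (blue) in the KO macrophage course, with dotted lines at the shares over all genes tested (37.5% and 15.4%); right, the median log2 difference of the list in KO (filled) and control (open), where the interferon list lies at 1.10 and -0.38. Under median-of-ratios scaling the higher calls of the ribosomal protein and glycolysis lists fall to 1 and 0.

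Control cultures of the same day gave 5257 calls (46.7%), 4095 higher and 1162 lower in the macrophage course, and their difference was compared with the KO difference gene by gene. Across the 11269 genes the KO and control differences, which share no library, correlated at Pearson r 0.75; genes are not independent replicates. Of the called genes 3124 were higher and 888 were lower in both, 40 were higher in KO and lower in control, and 18 were the reverse. The difference itself passed for 367 genes (3.26%), 186 with the KO value above the control value and 181 (1.61%) with it below. With the replicate number as a block 1638 passed. Leaving out libraries moved the count between 40 (without replicate 2 of both KO groups) and 959 (without KO granulocyte replicate 1), so the named genes below are those that kept the call without any 1 of the 12 libraries, unless stated otherwise. Leaving out a same-numbered pair was harder to pass. Of 39 named genes with this call, 24 lost it without replicate 2 of both KO groups and 21 without replicate 3 of both.

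Several macrophage genes had a KO difference above their control difference. Csf1r was at 178, 186 and 249 TPM in the control macrophage libraries and 219.7, 236 and 319.7 TPM in the control granulocyte libraries, groups that overlapped, with a control difference of -0.34 ± 0.15 against 0.84 ± 0.15 in KO. The difference between the genotypes was 1.18 ± 0.21 (adjusted p = 0.0148), and it lost the call without control or KO macrophage replicate 2 (adjusted p up to 0.051). Fcgr1 was at 26.9, 28.2 and 36.5 against 13.8, 16.1 and 35.6 TPM in control, groups that overlapped, and its KO difference exceeded the control value by 2.78 ± 0.47 (adjusted p = 0.0117). Apoe had opposite directions in the genotypes: control macrophage libraries had 138, 148 and 181 TPM and control granulocyte libraries 529, 660.2 and 479 TPM, and the difference between the genotypes was 3.85 ± 0.56 (adjusted p = 0.00562). Aif1, a calcium-binding protein of macrophages, had them too, at 9.77 ± 0.875 against 3.08 ± 0.636 TPM in KO and 3.60 ± 1.31 against 18.1 ± 8.85 TPM in control (means ± SD, n = 3), groups that did not overlap in either genotype (difference 3.40 ± 0.40, adjusted p = 0.00162). Lpl, Slc40a1, Pid1 and Nptx1 had positive differences too, of 0.97, 1.35, 2.11 and 2.96. Among the interferon genes Ifit3, Rsad2, Ifit1, Oasl1, Cxcl10 and Isg15 differed by 3.74, 3.28, 3.19, 2.20, 2.33 and 2.08. Of these, Oasl1 reached 1 TPM only in the KO macrophage libraries, so the filter admitted it only through the group where it was high. It passed the filter in only 9 of the 12 fits with 1 library left out. Its call there is not separate support.

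In a pair of genes the control granulocyte libraries held far more transcript than any other group. Saa3, an acute-phase serum amyloid, measured 1747, 2106 and 2521 TPM in control granulocyte libraries and 8.10, 5.04 and 9.17 TPM in control macrophage libraries. The KO libraries had 15, 35.0 and 30.6 TPM in the granulocyte and 7.01, 11.7 and 14.2 TPM in the macrophage course, so the KO difference was -1.18 ± 0.32 against -8.00 ± 0.32 in control (difference 6.81 ± 0.46, adjusted p = 7.63e-05). Mmp14, a membrane-bound metalloproteinase, was at 23.1, 30.6 and 35.6 TPM in control granulocyte libraries and between 0.21 and 2.17 TPM in all KO libraries (difference 3.50 ± 0.26, adjusted p = 0.000126).

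Among genes with the KO value below the control value were several of the granulocyte side. Lrg1 was at 35.3, 35.8 and 14.0 TPM in control macrophage and 232, 199.8 and 161 TPM in control granulocyte libraries; the granulocyte levels of the genotypes overlapped, the KO macrophage level was lower, and the difference was -3.03 ± 0.52 (adjusted p = 0.0125). Ffar2, a receptor for short-chain fatty acids, was at 4.92, 2.32 and 2.13 against 31.5, 43.9 and 52.3 TPM in KO and 14.8, 16.6 and 6.79 against 20.9, 19.6 and 13.3 TPM in control (difference -2.91 ± 0.47, adjusted p = 0.0101). Pecam1, the adhesion molecule CD31, was at 13.8, 6.21 and 9.37 against 59.3, 82.0 and 101 TPM in KO and 33.1, 33.1 and 22.1 against 37.9, 38.1 and 36.4 TPM in control (difference -2.59 ± 0.36, adjusted p = 0.00446). Rufy4, Prnp (the prion protein), Gm5150, Crispld2 and Casp6 (caspase 6) differed by -2.35, -2.33, -2.31, -2.25 and -2.25. Selplg, the selectin ligand PSGL-1, and Ccl24 differed by -1.06 and -1.68. Of the mast cell list 1 of 12 tested members passed, Kit (-1.82 ± 0.39, adjusted p = 0.0317), and that call was lost when any of 9 libraries was left out, among them control granulocyte replicate 2 (adjusted p = 0.0944). The other 11 did not pass: Cpa3 had 58.2, 62.8 and 11.6 TPM in control macrophage and 222, 225 and 339 TPM in control granulocyte libraries, a control difference of -2.83 ± 0.67 and a difference between the genotypes of -1.11 ± 0.95 (adjusted p = 0.654).

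**Figure D5:**
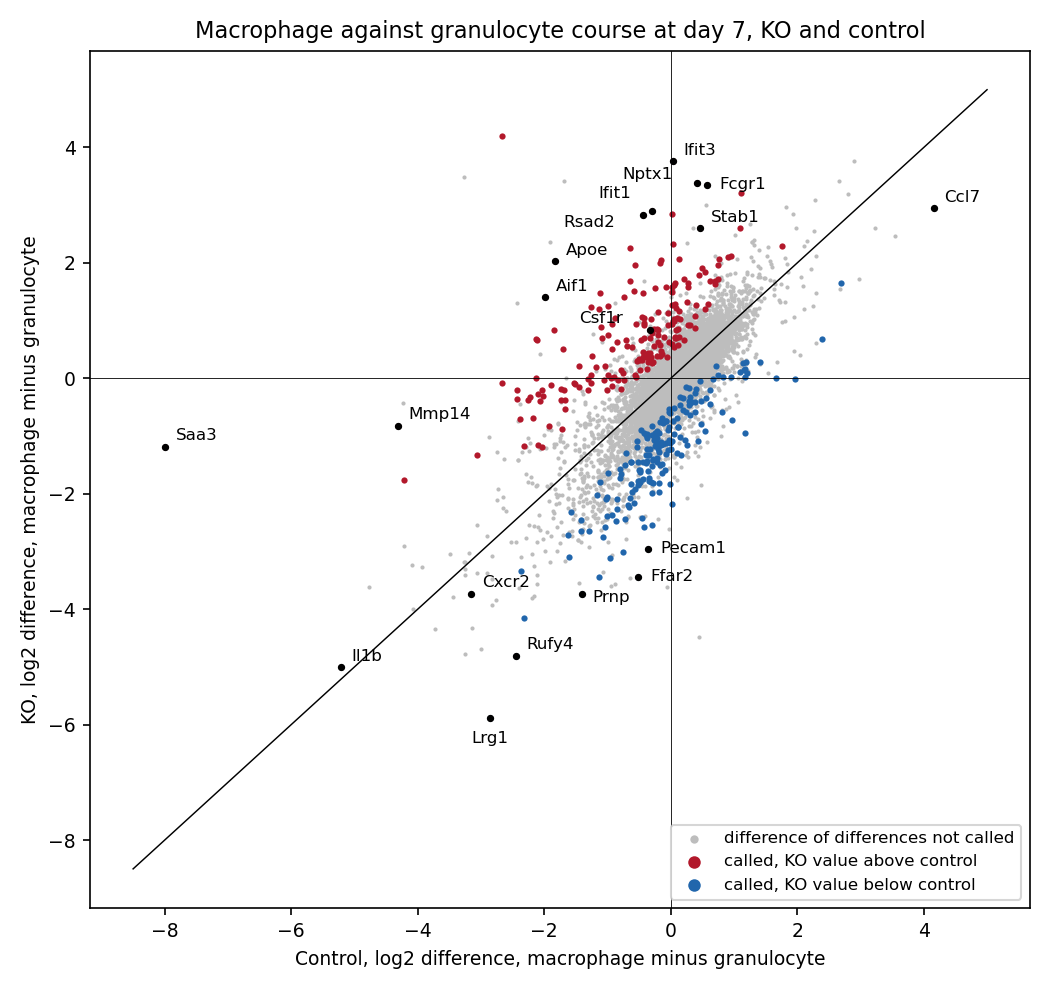
Log2 difference, macrophage minus granulocyte course, of each tested gene in control (horizontal) and KO (vertical); the diagonal marks equal differences, red and blue points are genes whose KO and control differences parted at the threshold, and labelled genes are black. Saa3 lies at -8.00 in control and -1.18 in KO, and the interferon genes Ifit3, Ifit1 and Rsad2 at 0.031, -0.29 and -0.44 in control and at 2.84 to 3.77 in KO.

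Levels at earlier days place these values in the course of the cultures; they are means ± SD of 3 KO libraries and were not tested. Spp1 was at 132 ± 22.4 TPM on day 3, before the cultures were divided, at 1131 ± 305 TPM on day 5 and 8518 ± 2688 TPM on day 7 of the macrophage course, and at 289 ± 63.6 and 1559 ± 98.0 TPM in the granulocyte course. Csf1r was at 27.9 ± 2.00 TPM on day 3, and on day 5 its levels were 33.5 ± 3.00 and 36.0 ± 5.52 TPM in the macrophage and granulocyte courses, which lay within 1 SD of each other. S100a8 was at 65739 ± 3457 TPM on day 3 and at 118576 ± 15940.3 and 106739 ± 8962 TPM on day 5, and only the macrophage course had fallen below its day 3 level by day 7, at 18423 ± 2150.3 TPM. Elane was at 1205 ± 124 TPM on day 3 against 34.4 ± 33.3 and 48.7 ± 52.2 TPM on day 7. Cpa3 was already at 508 ± 101 TPM on day 3 and at 1089 ± 384 TPM on day 5 of the granulocyte course, against 237 ± 18.3 TPM in the macrophage course. Tpsb2 was at 7.05 ± 0.122 TPM on day 3 and 23.6 ± 7.93 TPM on day 5 of the granulocyte course, well below its day 7 mean of 344 ± 216 TPM. Ifit3 was at 0.0833 ± 0.0153 TPM on day 3 and 0.610 ± 0.384 TPM on day 5 of the macrophage course, against 20.6 ± 7.87 TPM on day 7. In the granulocyte course Ifit3 was at 0.0767 ± 0.0306 TPM on day 5 and 0.563 ± 0.483 TPM on day 7.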

How the data were processed

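RNA-seq libraries were made from total RNA with a stranded kit, per the labels' protocols. The deposited tables hold TPM values for 24411 genes, made by the authors with RSEM (version not given) on mm10, with DESeq2 1.38.3 also named, per the submitters' processing notes. Gene symbols joined the 2 tables, whose 12 shared columns were identical. No 2 libraries held identical values. TPM keeps no read depth, so precision rests on the 3 libraries per group.

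From the TPM, limma 3.58.1 (R 4.3.3) was run on log2(TPM + 1) over the 12 day 7 libraries with 1 coefficient per group and a trended moderated variance. Genes needed at least 1 TPM in at least 3 libraries, which left 11269, and p-values were adjusted by Benjamini-Hochberg over all of them with a threshold of 0.05. Contrasts were macrophage minus granulocyte in KO, the same in control, and their difference. Shares of TPM were compared by exact two-sided permutation tests. Named genes were Taf1 and TFIID subunits, the 10 largest differences each way among called genes with no overlap and at least 5 TPM in the higher group, up to 6 members per list by smallest p, fixed genes of the culture design, and the 8 largest differences each way between the KO and control values; list members outside this rule were named after their values were seen. Some genes under the rule are not reported here. The members and the 32 lists (564 symbols, 3 without a match) were chosen with earlier results of these data known. Same-numbered libraries of the courses deviated together (correlations 0.53, 0.32 and 0.32 in KO, 0.40, 0.27 and 0.64 in control), and the protocol divides cultures between the courses. The numbers were therefore taken to pair the libraries in an alternative fit, the replicate block. The main fit, which gave the calls and p-values unless stated otherwise, left the pairing out. Some differently numbered libraries correlated as highly (up to 0.35 in KO and 0.43 in control), so the values alone do not single out this pairing. On simulated data with 200 changed genes among 11177, 90.9% were recovered at a log2 change of 1, 100% at 2, and 6.40% of calls were false. The simulated libraries varied independently and few genes changed, unlike here, so these shares do not carry over to the calls above. Alternatives covered the pseudocount, the filter, scaling, the block and libraries left out. Promoters came from RefSeq tables on GRCm38.p6 and gene positions from GENCODE M21.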

Additional observations from a re-analysis of the deposited data

Results flagged for a closer look

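No group of day 7 libraries had the 4 samples that a test for an outlying library needs. The genes below are those named above or in the fixed lists whose KO difference between the courses departed from the control difference in limma at an adjusted p under 0.05, given as KO minus control on the log2 scale.

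Among genes with the KO value above the control value, the interferon genes were Ifit3 (3.74), Rsad2 (3.28), Ifit1 (3.19), Cxcl10 (2.33), Oasl1 (2.20), Isg15 (2.08), Irf7 (1.75) and Oas1a (1.31). Genes of macrophages were Apoe (3.85), Aif1 (3.40), Fcgr1 (2.78), Stab1 (2.14), Lyz2 (1.38), Slc40a1 (1.35), Maf (1.22), Csf1r (1.18), Ctsl (1.03) and Lpl (0.97). The others were the non-coding gene Gm12238 (6.87), Saa3 (6.81), Mmp14 (3.50), Nptx1 (2.96), Pid1 (2.11), the complement receptor C5ar1 (0.66) and the eosinophil genes Epx (1.90) and Ccr3 (0.84). Epx was at 3.19, 2.51 and 1.18 TPM in the control macrophage and 15.9, 11.1 and 15.2 TPM in the control granulocyte libraries, and under 1 TPM in every KO library.

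With the KO value below the control value were Lrg1 (-3.03), Ffar2 (-2.91), Pecam1 (-2.59), Rufy4 (-2.35), Prnp (-2.33), Gm5150 (-2.31), Casp6 (-2.25), Crispld2 (-2.25), Serpina3g (-1.84), Kit (-1.82), Ccl24 (-1.68), Gp5 (-1.52) and Selplg (-1.06).

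Of these 39 genes, 27 kept the call in every fit without 1 of the 12 libraries in which they were tested. Oasl1 and Ccr3, counted among the 27, reached 1 TPM only in the KO macrophage libraries and passed the filter in only 9 of those fits. The other 12, Csf1r, Stab1, Oas1a, Kit, Ctsl, Lyz2, C5ar1, Maf, Gp5, Irf7, Gm12238 and Serpina3g, lost it without control macrophage replicate 2, and all of them but Stab1 and Oas1a also without KO macrophage replicate 2. Those besides Csf1r, Stab1 and Oas1a lost it without control granulocyte replicate 2, and all of these but Gm12238 without control macrophage replicate 1. KO granulocyte replicate 2 ended the calls of Kit, Ctsl, C5ar1, Maf, Gp5, Irf7, Gm12238 and Serpina3g, and KO granulocyte replicate 3 those of Kit, Ctsl, Lyz2, C5ar1, Maf, Gp5, Gm12238 and Serpina3g. KO macrophage replicate 3 ended those of Kit, Ctsl, Lyz2, C5ar1, Maf, Gp5 and Serpina3g, control granulocyte replicate 1 those of Kit, C5ar1, Gp5 and Serpina3g, KO macrophage replicate 1 those of Kit and Maf, and control granulocyte replicate 3 that of C5ar1. The highest adjusted p with 1 library left out ran from 0.0501 for Stab1 and Oas1a to 0.107 for Maf, 0.121 for Gp5 and 0.13 for C5ar1. Without replicate 2 of both KO groups 24 of the 39 genes lost the call, and without replicate 3 of both 21 did. Under all alternatives 7 of the 39 stayed the same. The causes of the differences and of the lost calls were not tested.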

How the results depend on the processing

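The total of 5967 KO calls stayed within 1.5 times of itself under the alternative pseudocounts, filters and scalings, the fit of the 6 KO libraries alone and the replicate block. Lower calls rose from 1740 to 2767 with median-of-ratios scaling and to 2844 with the short structural RNA, histone and calprotectin genes left out. Leaving out libraries gave 3748 to 5769 calls in all, 2645 to 4252 higher and 1103 to 1998 lower; the smallest counts came without replicate 2 of both KO groups, and without replicate 3 of both there were 3856 (2718 higher, 1138 lower). With replicates 2 and 3 of both KO groups left out, an alternative chosen after seeing the data in which the lone library of each course is assumed to vary like the control libraries, 556 calls were left, 263 higher and 293 lower. The 367 calls on the difference between KO and control became 227 with a filter of 5 TPM, 668 with median-of-ratios scaling, 816 with the structural RNA, histone and calprotectin genes left out and 1638 with the replicate block. With 1 library left out they ranged from 108 (without control granulocyte replicate 2) to 959 (without KO granulocyte replicate 1). They were 943, 40 and 67 without replicate 1, 2 or 3 of both KO groups and 13 without replicates 2 and 3 of both KO groups. The cause was not tested, beyond the smaller number of libraries where some were left out.

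Of 156 named genes, 141 kept their KO call, or its absence, without any 1 library, and 150 kept it with the replicate block. Among the 141, Oasl1 and Ccr3 reached 1 TPM only in the KO macrophage libraries and passed the filter in only 3 of the 6 fits without 1 KO library. The exceptions under the block were Mpo, Prtn3, C1qc, Mertk, Arg1 and Csf2rb, all given above. Without replicate 1, 2 or 3 of both KO groups 8, 21 and 14 named genes changed call or sign, namely, besides genes given above as changing with 1 library left out, Adgre1 without replicate 1, Fabp4, B4galt1, Cd34, H2-Aa, Slc16a3, Saa3, Fcgrt and Taf9 without replicate 2, and Cebpe, Cd14, Slc16a3 and Taf9 without replicate 3. Reversed values were those of genes that had not passed. Elane ranged from -1.11 to 0.45 with 1 library left out, turning without KO granulocyte replicate 1, and Taf1 turned to 0.021 without KO replicates 2 and 3. Camp ranged from -1.02 to 0.33 with 1 library left out; it turned to 0.33 without macrophage replicate 2, 0.22 without macrophage replicate 3, 0.24 without granulocyte replicate 1, 0.082 and 0.064 without replicate 2 or 3 of both KO groups and 0.77 without both of these numbers. Mmp14 lost its KO call with a pseudocount of 5 TPM, Ftl1 without a filter and Rps2 with median-of-ratios scaling. The difference between KO and control for Epx was lost with a pseudocount of 0.1 TPM. TPM without read depth leaves counting error at low levels unknown.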
